A study of Homo sapiens with 6 samples.

Results

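Annexins are proteins that bind negatively charged phospholipids of membranes when calcium rises, through a conserved core of repeated helical units, and they differ from one another mainly in the N-terminal tail in front of that core. The tail is where several of them take up a partner of the S100 family, as ANXA2 does with S100A10. In epithelial cells they are known from membrane repair, vesicle traffic, endocytosis and the control of inflammation, and ANXA5 is widely used as a probe for phosphatidylserine on dying cells.

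The 10 annexin genes described here (ANXA1, ANXA2, ANXA3, ANXA4, ANXA5, ANXA6, ANXA7, ANXA9, ANXA10 and ANXA11) were taken by symbol from the deposited tables of 26255 genes, and all 10 were found. They lie on chromosomes 1 (ANXA9), 2 (ANXA4), 4 (ANXA3, ANXA5 and ANXA10), 5 (ANXA6), 9 (ANXA1), 10 (ANXA7 and ANXA11) and 15 (ANXA2). The libraries came from HCT116, an established human colorectal carcinoma cell line. Per the series title the cells were transduced with the degron of ornithine decarboxylase, a sequence that sends proteins to the proteasome without ubiquitin, and the series places them among cancer stem cell models. The labels describe 3 libraries as positive and 3 as negative for fluorescence of ZsGreen, the green protein read out here, and both groups are of the same line. The labels do not say how the groups were separated, how many clones were used or whether the libraries are separate cultures, and the p-values can speak only for the scatter among the libraries given, part of which may be technical. Each library is RNA of many cells, so that fewer cells with a transcript and less of it per cell cannot be told apart. The titles of the 2 groups follow different naming patterns, and a difference in handling between the groups cannot be told apart from the difference in fluorescence.

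Values are FPKM, by definition the number of sequenced fragments divided by transcript length in kilobases and by the mapped total in units of 1000000. How the libraries were scaled to each other is not given, so that total may not be a library's own. Each mean is given with its SD (n = 3 libraries per group). Log2 fold changes are ZsGreen-positive minus ZsGreen-negative on the log2(FPKM + 1) scale with their SE, from limma fitted on the 12213 genes with a mean of at least 1 FPKM, and p-values were adjusted over all of these by the Benjamini-Hochberg method. The estimated depth was 12250000 to 13700000 fragments in the ZsGreen-positive and 9550000 to 10020000 in the ZsGreen-negative libraries. Genes at a single fragment were scarce in ZsGreen-positive replicates 2 and 3. They made up 8.53% and 9.33% of long single-transcript genes with about 1 to 8 estimated fragments there, where ZsGreen-positive replicate 1 had 23.8% and the ZsGreen-negative libraries 26.8% to 33.9%. The 5 markers of colorectal epithelium summed to 3139 to 3572 FPKM in ZsGreen-positive and 4238 to 4305 FPKM in ZsGreen-negative libraries, and 1 of the 5 passed the test as higher, 3 as lower and 1 did not pass. EPCAM was at 147 ± 7.75 FPKM in ZsGreen-positive and 129 ± 3.86 FPKM in ZsGreen-negative libraries, and KRT19 at 1086 ± 68.4 FPKM in ZsGreen-positive and 1079 ± 4.84 FPKM in ZsGreen-negative libraries. The 3 lower markers were KRT8 (1152 ± 63.1 FPKM in ZsGreen-positive, 1518 ± 23.5 FPKM in ZsGreen-negative libraries), KRT18 (955 ± 90.2 FPKM in ZsGreen-positive, 1505 ± 20.3 FPKM in ZsGreen-negative libraries) and CDH1, which encodes E-cadherin (17.4 ± 1.42 FPKM in ZsGreen-positive, 49.8 ± 0.455 FPKM in ZsGreen-negative libraries). The 3 endothelial markers summed to at most 0.171 FPKM in any ZsGreen-positive and 0.126 FPKM in any ZsGreen-negative library. The 5 fibroblast markers summed to 0.675 to 1.19 FPKM in ZsGreen-positive and 2.33 to 2.48 FPKM in ZsGreen-negative libraries, with COL1A2, DCN and LUM at 0 throughout. The 5 leukocyte markers summed to 0.471 to 4.13 and 1.38 to 1.92 FPKM in ZsGreen-positive and ZsGreen-negative libraries, nearly all of it CD68, with CD3E at 0 throughout. The part of such cells in the results below was not tested.

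The results below turn mainly on ANXA1, ANXA2 and ANXA6, and the sequences upstream of these 3 genes are shown because they differ in CpG content and motifs. All 10 members matched an entry of the RefSeq promoter table (GRCh38.p14), with 14 start sites in all. The 250 bases before the first listed start are given 5′ to 3′ on the strand of the gene, and capitals mark, on either strand, the TATA box TATAAA, the CCAAT box, the SP1-type box GGGCGG, the AP-1 motif TGANTCA and the STAT motif TTCNNNGAA. Matches may overlap one another, and the last of these motifs has none in the windows shown. The FPKM values themselves were made on hg19.
ANXA1, chr9:73151615-73151864, plus strand: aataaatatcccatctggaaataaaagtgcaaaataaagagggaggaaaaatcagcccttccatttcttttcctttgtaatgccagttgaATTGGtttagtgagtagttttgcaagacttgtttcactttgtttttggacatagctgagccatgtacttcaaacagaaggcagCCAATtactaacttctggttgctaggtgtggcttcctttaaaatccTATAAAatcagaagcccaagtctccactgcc
ANXA2, chr15:60397987-60398236, minus strand: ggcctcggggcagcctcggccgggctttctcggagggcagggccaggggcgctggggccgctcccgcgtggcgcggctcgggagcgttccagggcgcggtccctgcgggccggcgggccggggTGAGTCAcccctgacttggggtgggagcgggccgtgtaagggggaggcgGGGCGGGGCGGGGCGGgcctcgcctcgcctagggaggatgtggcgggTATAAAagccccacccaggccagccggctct
ANXA6, chr5:151157780-151158029, minus strand: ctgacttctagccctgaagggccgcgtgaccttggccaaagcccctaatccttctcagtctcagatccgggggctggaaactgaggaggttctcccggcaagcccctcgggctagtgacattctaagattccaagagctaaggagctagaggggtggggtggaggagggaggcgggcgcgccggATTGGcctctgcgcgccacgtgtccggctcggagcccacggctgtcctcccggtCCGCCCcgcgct

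The ANXA1 window held 0 CpG dinucleotides, a TATAAA beginning 31 bases before the start and CCAAT on both strands, 77 and 160 bases before it. The ANXA2 window held 28 CpG dinucleotides, a TATAAA also at 31 bases, 3 overlapping GGGCGG at 68 to 78 bases and the only TGANTCA among the 14 annexin windows, at 127 bases. The ANXA6 window held 19 CpG dinucleotides, 1 CCAAT on the opposite strand and 1 GGGCGG, also on the opposite strand, and no TATAAA. ANXA6 has another listed start, whose window, not shown, held 10 CpG dinucleotides and none of the motifs. Which start these cells use was not tested. Over all 35116 windows in the table the median was 11 CpG dinucleotides. TATAAA stood in 10.7% of these windows, CCAAT in 32.0%, GGGCGG in 42.6%, TGANTCA in 6.57% and TTCNNNGAA in 6.57%. Among the 14 annexin windows TATAAA was found in 4 (ANXA1, ANXA2, ANXA10 and 1 start of ANXA11), CCAAT in 4, GGGCGG in 7, TGANTCA in 1 and TTCNNNGAA in 0. These matches describe letters in a window and say nothing of binding.

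ANXA1 and ANXA6 changed in opposite directions, and ANXA2 did not pass the test. ANXA1 fell to 461 ± 19.8 FPKM in ZsGreen-positive libraries, against 1249 ± 14.3 FPKM in ZsGreen-negative libraries, which was 2.71-fold lower. ANXA6 rose to 60.4 ± 5.0 FPKM in ZsGreen-positive libraries, against 17.5 ± 0.788 FPKM in ZsGreen-negative libraries, which was 3.45-fold higher. ANXA5 fell 1.47-fold, and ANXA3, ANXA4 and ANXA7 were lower by 1.19-fold to 1.30-fold. Of the 10 annexins, 9 passed the filter on low values, and of these 5 fell, 1 rose and 3 did not pass the test. Over all genes tested 59.4% passed, 30.0% as lower and 29.4% as higher, so that 6 of 9 annexins passing (66.7%) lies near the rate for any gene, while 5 of 9 (55.6%) passed as lower. Without ZsGreen-negative replicate 2, or without ZsGreen-negative replicate 3, 2 annexins fell (ANXA1 and ANXA5), and without ZsGreen-positive replicate 2 ANXA9 also rose. Over all genes, 2962 of 12202 tested were lower without ZsGreen-negative replicate 2 and 2991 of 12207 without ZsGreen-negative replicate 3. With all libraries 3668 of 12213 were lower and 3590 higher. Without ZsGreen-positive replicate 2, 3762 of 12195 were higher. The median log2 fold change of the 9 annexins was -0.26, beside 0.0040 for all genes tested.

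**Figure D1:**
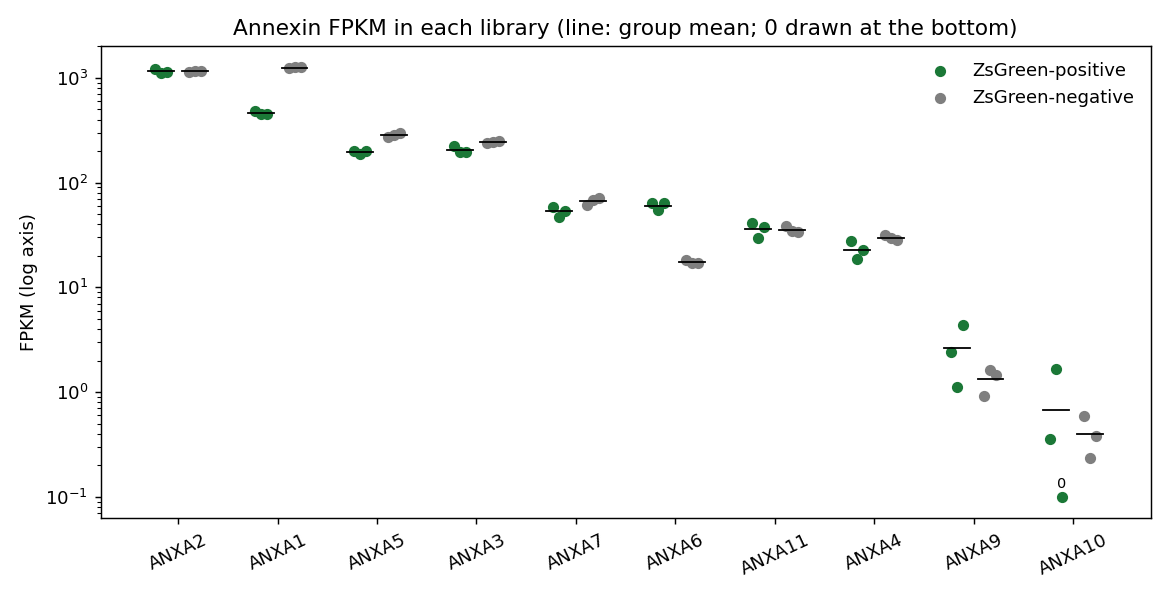
FPKM of the 10 annexins in each library on a log axis, ordered by mean level, with ZsGreen-positive libraries to the left of ZsGreen-negative libraries and a line at each group mean. ANXA1 is lower and ANXA6 higher in all 3 ZsGreen-positive libraries, while the points of ANXA2, ANXA11, ANXA9 and ANXA10 overlap between the groups.

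**Figure D2:**
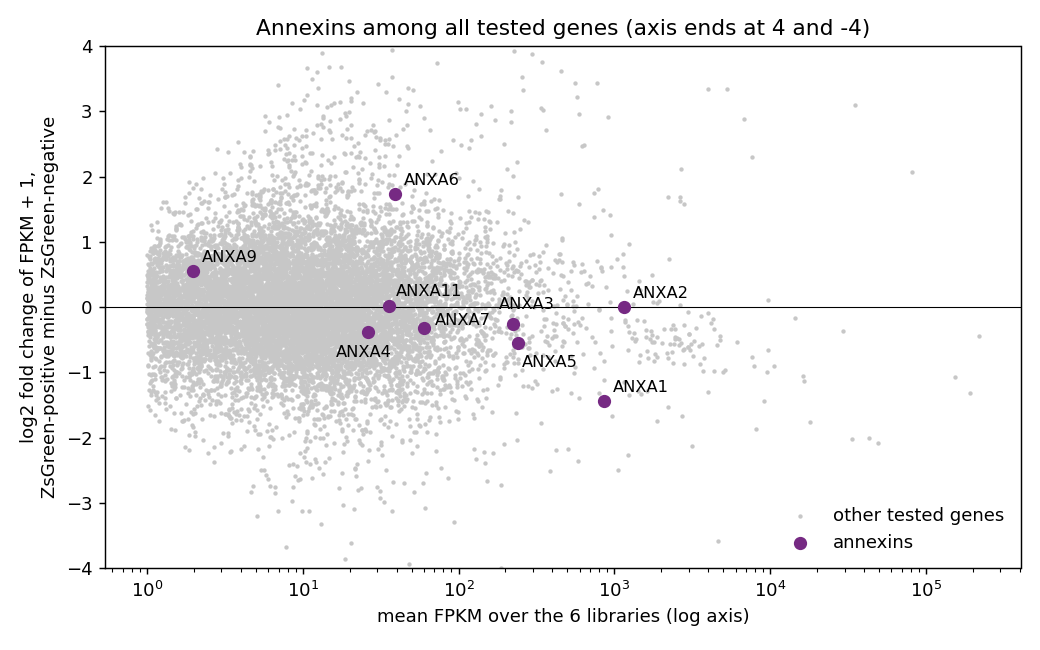
Log2 fold change against mean FPKM (log axis) for the genes tested, with the annexins in purple; 64 genes beyond 4 in size lie outside the axis. ANXA1 and ANXA6 lie toward the edges of the cloud and the other annexins near its middle.

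ANXA1 encodes a protein induced by glucocorticoids that restrains inflammation, and it was first known as an inhibitor of phospholipase A2. It stood at 484, 449.3 and 449.8 FPKM in ZsGreen-positive replicates 1 to 3, against 1233, 1257 and 1258 FPKM in ZsGreen-negative replicates 1 to 3. The groups were far apart and each was tight. The log2 fold change was -1.44 ± 0.0560 (limma, adjusted p = 2.03e-06), and 96.9% of the genes tested had a higher one. ANXA1 was the most abundant annexin in ZsGreen-negative libraries, above ANXA2 in all 3 of them, and it came after ANXA2 in all 3 ZsGreen-positive libraries. The ratio of ANXA1 to ANXA2 within a library, which a single scaling factor per library cannot move, was 0.399 ± 0.0062 in ZsGreen-positive and 1.08 ± 0.0055 in ZsGreen-negative libraries (two-sided exact permutation test, p = 0.1, which is the lowest value 3 libraries against 3 allow). This ratio was chosen after its values were seen.

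ANXA2 encodes the annexin that forms a complex with S100A10 at the plasma membrane and binds plasminogen there. Its FPKM was 1204, 1115 and 1149 in ZsGreen-positive libraries, against 1139, 1158 and 1170 in ZsGreen-negative libraries. The highest and the lowest of the 6 values were both ZsGreen-positive, and the groups overlapped. The log2 fold change was 0.00 ± 0.0570 (95% interval -0.13 to 0.13; adjusted p = 1.00). Scaling moved this value. With the FPKM of each library made to sum to 1000000 it was 0.18 (adjusted p = 0.0281), where the median over all genes tested was itself 0.15, and with quantile normalisation it was -0.29 (adjusted p = 0.0112). ANXA2 has processed pseudogenes that resemble its transcript closely, so that reads may have been shared among them. ANXA2P2 was listed at 3.08, 0.580 and 6.54 FPKM in ZsGreen-positive and 0.909, 1.74 and 0.767 FPKM in ZsGreen-negative libraries, far under ANXA2 itself (limma, adjusted p = 0.227, but 0.0112 without ZsGreen-positive replicate 2). ANXA2P1 was listed at 0.196, 0 and 0 FPKM in ZsGreen-positive and 0.643, 0.337 and 0.249 FPKM in ZsGreen-negative libraries, and ANXA2P3 at 0 in all 6.

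ANXA6 encodes a longer annexin with a duplicated core, which acts on endosomes, cholesterol transport and the recruitment of a RAS inhibitor to membranes. It stood at 63.4, 54.6 and 63.1 FPKM in ZsGreen-positive libraries, against 18.4, 17.0 and 17.2 FPKM in ZsGreen-negative libraries. The lowest ZsGreen-positive value lay well above the highest ZsGreen-negative value. The log2 fold change was 1.73 ± 0.0810 (adjusted p = 4.06e-06), and 3.23% of the genes tested had a higher one. By mean level it was the fifth annexin in ZsGreen-positive and the eighth in ZsGreen-negative libraries. It stayed a minor part of the family, with 2.75% ± 0.151 of the summed annexin FPKM in ZsGreen-positive and 0.568% ± 0.0339 in ZsGreen-negative libraries (exact permutation p = 0.1). Its ratio to ANXA2, chosen after its values were seen, was 0.0527, 0.0490 and 0.0550 in ZsGreen-positive and 0.0162, 0.0147 and 0.0147 in ZsGreen-negative libraries.

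ANXA5 binds phosphatidylserine and assembles into lattices on membranes. It was at 199, 187 and 199 FPKM in ZsGreen-positive libraries, against 273, 286 and 299 FPKM in ZsGreen-negative libraries. These ranges did not overlap, and the log2 fold change was -0.55 ± 0.0588 (adjusted p = 0.000175). ANXA5 was the third annexin by mean level in ZsGreen-negative libraries, above ANXA3 in each. In ZsGreen-positive libraries the ranges of ANXA5 and ANXA3 overlapped, with ANXA3 the higher in 2 of 3. The ranges of ANXA6 and ANXA7 also overlapped there, and those of ANXA9 and ANXA10, while in ZsGreen-negative libraries no 2 annexins next to each other in order of mean level overlapped.

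ANXA3, known from the granules of neutrophils, was at 225, 194.5 and 195 FPKM in ZsGreen-positive libraries, against 238, 245 and 249.7 FPKM in ZsGreen-negative libraries (log2 fold change -0.26 ± 0.0711, adjusted p = 0.0166). ANXA7, also called synexin and linked to secretion, was at 58.6, 47.2 and 53.5 FPKM in ZsGreen-positive libraries, against 61.5, 67.8 and 70.6 FPKM in ZsGreen-negative libraries (log2 fold change -0.33 ± 0.0942, adjusted p = 0.020). ANXA4, an annexin of epithelial cells, was at 27.4, 18.6 and 22.5 FPKM in ZsGreen-positive libraries, against 31.2, 29.7 and 28.3 FPKM in ZsGreen-negative libraries (log2 fold change -0.38 ± 0.133, adjusted p = 0.0395). A gene on the opposite strand, which has no value in the deposited data, shares bases with ANXA7. Without knowledge of how strand was used, reads of the pair cannot be told apart. For all 3 genes the groups came close but did not overlap, and 67.6% of all genes tested had groups that did not overlap. None of the 3 calls held when the FPKM of a library were made to sum to 1000000, with log2 fold changes of -0.08 for ANXA3 (adjusted p = 0.305), -0.15 for ANXA7 (adjusted p = 0.123) and -0.21 for ANXA4 (adjusted p = 0.101). Relative to the median shift of 0.15 under that rescaling these were -0.23, -0.30 and -0.36. ANXA3 and ANXA7 also lost their calls without ZsGreen-negative replicate 2 (adjusted p = 0.0604 and 0.0679) and without ZsGreen-negative replicate 3 (adjusted p = 0.0691 and 0.0803). ANXA4 lost its call on leaving out any single library except ZsGreen-positive replicate 1 (adjusted p 0.0692 to 0.118). With ZsGreen-positive replicate 1 as the only ZsGreen-positive library the log2 fold changes were -0.12, -0.18 and -0.11 for ANXA3, ANXA7 and ANXA4.

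ANXA11, which tethers RNA granules to lysosomes and binds S100A6, was at 40.8, 29.8 and 37.6 FPKM in ZsGreen-positive libraries, against 38.4, 34.5 and 33.8 FPKM in ZsGreen-negative libraries. The groups overlapped widely (log2 fold change 0.01 ± 0.120, 95% interval -0.27 to 0.29, adjusted p = 0.948). ANXA9, an atypical annexin, was at 2.41, 1.11 and 4.40 FPKM in ZsGreen-positive libraries, against 0.908, 1.61 and 1.46 FPKM in ZsGreen-negative libraries, with a log2 fold change of 0.55 ± 0.336 (95% interval -0.24 to 1.34, adjusted p = 0.192). Without ZsGreen-positive replicate 2 it was 0.89 (adjusted p = 0.0235). ANXA10, known from the stomach, had a mean under 1 FPKM and was not tested. It was listed at 0.359, 1.67 and 0 FPKM in ZsGreen-positive and 0.589, 0.232 and 0.380 FPKM in ZsGreen-negative libraries. At the estimated depth these are about 6, 31 and 0 fragments in ZsGreen-positive and 8, 3 and 5 fragments in ZsGreen-negative libraries. The depth is rough for ZsGreen-positive replicates 2 and 3, where it rests on 10 and 6 genes. The groups overlapped, no difference in ANXA10 can be read from these values, and a listed 0 can be a failed estimate.

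Over the 8 members above 10 FPKM the coefficient of variation was 3.65% to 19.4% (median 8.41%) in ZsGreen-positive and 1.15% to 6.98% (median 4.497%) in ZsGreen-negative libraries. It was larger in ZsGreen-positive libraries for each of these members except ANXA5, which had 3.65% in ZsGreen-positive and 4.497% in ZsGreen-negative libraries. ZsGreen-positive replicate 2 was the lowest of its group for all 9 annexins tested, and for 35.9% of all genes tested. It was also the lowest for S100A4, S100A6, S100A10 and S100A11 and for the epithelial markers KRT8, KRT18 and KRT19. For the epithelial markers EPCAM and CDH1 it was the highest. ZsGreen-positive replicate 1 was the highest for 7 of the 9, and for 36.5% of all genes tested. Within this group the FPKM sum over all genes was also lowest in replicate 2 and highest in replicate 1. The part of these sums or of library quality in these positions was not tested.

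The summed FPKM of the 10 annexins was 2192 ± 105 in ZsGreen-positive and 3086 ± 47.9 in ZsGreen-negative libraries (two-sided exact permutation test, p = 0.1, the lowest this design allows). The FPKM of all genes summed to 1.76778e+06, 1.46824e+06 and 1.61688e+06 in ZsGreen-positive replicates 1 to 3. In ZsGreen-negative libraries that sum was 1.81465e+06 to 1.84048e+06. The part of this difference in the lower annexin sum was not tested. ANXA1 and ANXA2 together made up 73.8% ± 0.686 of the annexin sum in ZsGreen-positive and 77.9% ± 0.283 in ZsGreen-negative libraries. The shares of ANXA1 and ANXA2 did not overlap between the groups and were nearly constant within them. ANXA1 took 21.0% ± 0.359 of the sum in ZsGreen-positive and 40.5% ± 0.233 in ZsGreen-negative libraries. ANXA2 took 52.7% ± 0.454 in ZsGreen-positive and 37.4% ± 0.0847 in ZsGreen-negative libraries (exact permutation p = 0.1 for ANXA1 and for ANXA2). The FPKM of ANXA2 itself was 1156 ± 45.1 in ZsGreen-positive and 1155 ± 15.6 in ZsGreen-negative libraries. Its larger share thus came with a smaller annexin sum and not with a higher level of ANXA2. ANXA3 took 9.34% ± 0.400 in ZsGreen-positive and 7.92% ± 0.0670 in ZsGreen-negative libraries, without overlap (exact permutation p = 0.1), although its FPKM was lower. ANXA5 took 8.89% ± 0.265 and 9.26% ± 0.277 in ZsGreen-positive and ZsGreen-negative libraries, a difference with an exact permutation p of 0.2.

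**Figure D3:**
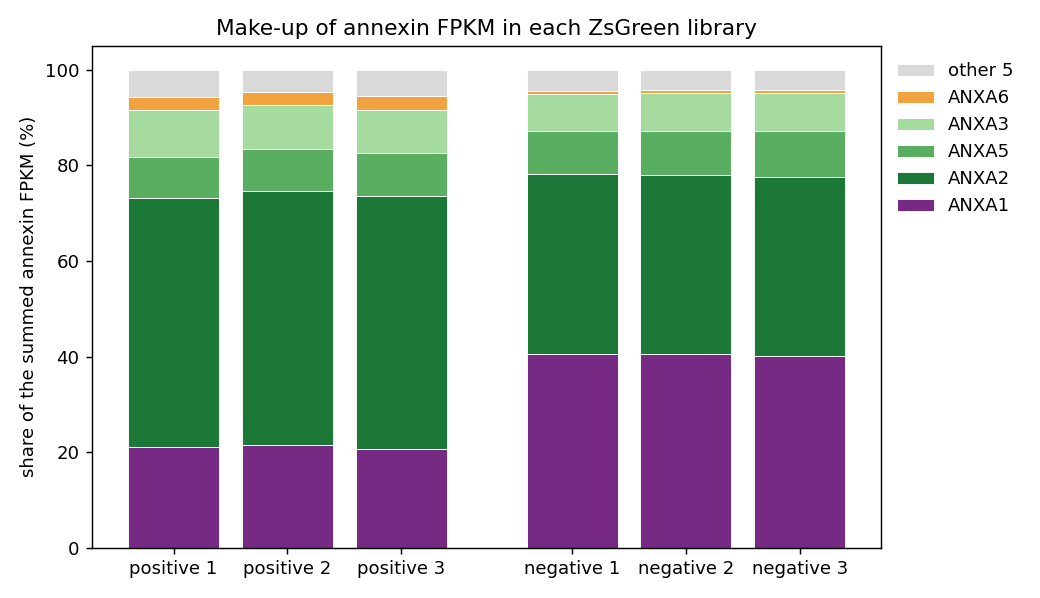
Share of each annexin in the summed annexin FPKM, in percent, with 1 bar per library and the ZsGreen-positive libraries on the left. ANXA1 takes 20.7% to 21.4% in ZsGreen-positive and 40.2% to 40.6% in ZsGreen-negative libraries, and ANXA2 takes 52.2% to 53.1% in ZsGreen-positive and 37.4% to 37.5% in ZsGreen-negative libraries.

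All 4 S100 partners of annexins fell, where 30.0% of all genes tested were lower, and their median log2 fold change was -0.73. S100A10, the partner of ANXA2, was at 28.0, 17.9 and 26.0 FPKM in ZsGreen-positive libraries, against 39.0, 41.1 and 38.9 FPKM in ZsGreen-negative libraries (log2 fold change -0.73 ± 0.155, adjusted p = 0.00522). ANXA2 stood at 42.9, 62.3 and 44.1 FPKM per FPKM of S100A10 in ZsGreen-positive libraries, and at 29.2, 28.1 and 30.1 in ZsGreen-negative libraries. The ratios did not overlap (log2 difference 0.75; exact permutation p = 0.1). S100A11, a partner of ANXA1, was at 66.8, 29.7 and 33.6 FPKM in ZsGreen-positive libraries, against 90.6, 86.2 and 93.8 FPKM in ZsGreen-negative libraries (log2 fold change -1.13 ± 0.271, adjusted p = 0.00878). With ZsGreen-positive replicate 1 as the only ZsGreen-positive library the log2 fold change of S100A11 was -0.43 and that of S100A10 -0.48. The ratio of ANXA1 to S100A11 overlapped between the groups, with 7.25, 15.1 and 13.4 FPKM of ANXA1 per FPKM of S100A11 in ZsGreen-positive and 13.6, 14.6 and 13.4 in ZsGreen-negative libraries (exact permutation p = 0.7). Without ZsGreen-positive replicate 1 the log2 difference of that ratio was 0.0394, against -0.29 with it. S100A6, a partner of ANXA11, fell to 2377 ± 145 FPKM in ZsGreen-positive libraries, against 3751 ± 135 FPKM in ZsGreen-negative libraries (log2 fold change -0.66 ± 0.0731, adjusted p = 0.000211). ANXA11 stood at 0.0162, 0.0134 and 0.0158 FPKM per FPKM of S100A6 in ZsGreen-positive and 0.0106, 0.00888 and 0.00902 in ZsGreen-negative libraries, again without overlap (log2 difference 0.67; exact permutation p = 0.1). S100 transcripts are short, and FPKM of short transcripts can be over- or understated.

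**Figure D4:**
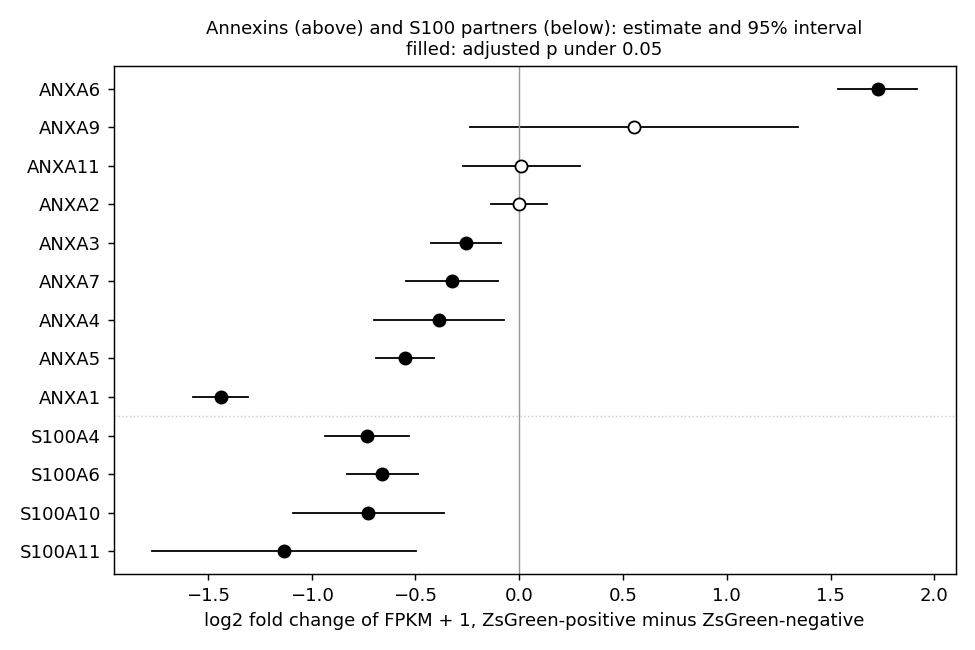
Log2 fold change, ZsGreen-positive minus ZsGreen-negative, of the 9 annexins tested and the 4 S100 partners, with 95% intervals; filled points have an adjusted p under 0.05. The interval of ANXA2 runs from -0.13 to 0.13 and that of S100A10 from -1.09 to -0.36.

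Of 8 other direct partners, 4 were tested, of which 2 rose, 1 fell and 1 did not pass, with a median log2 fold change of 0.16, where 29.4% of all genes tested were higher and 30.0% lower. AHNAK, a giant scaffold held at the membrane by ANXA2 and S100A10, fell to 34.3 ± 4.07 FPKM in ZsGreen-positive libraries, against 118 ± 1.18 FPKM in ZsGreen-negative libraries (log2 fold change -1.76 ± 0.0865, adjusted p = 4.78e-06). PLA2G4A, the cytosolic phospholipase A2, rose to 12.0 ± 2.34 FPKM in ZsGreen-positive libraries, against 6.04 ± 0.640 FPKM in ZsGreen-negative libraries (log2 fold change 0.87 ± 0.145, adjusted p = 0.00155). SRI, which encodes sorcin, a partner of ANXA7, was at 70.6 ± 9.60 and 56.6 ± 3.83 FPKM in ZsGreen-positive and ZsGreen-negative libraries (log2 fold change 0.31, adjusted p = 0.0410), a call kept under 9 of 17 alternatives (adjusted p 0.00263 to 0.137) and lost on leaving out any single library except ZsGreen-positive replicate 2. FPR1, FPR2 and FPR3, the formyl peptide receptors through which secreted ANXA1 acts, were listed at 0 in every ZsGreen-positive library. In ZsGreen-negative libraries FPR1 was at 0.657, 0.777 and 1.17 FPKM, and no other value of the 3 receptors was above 0.0538 FPKM. These receptors were not tested, and a listed 0 can be a failed estimate. Zeros were more common in ZsGreen-positive libraries in general. There 10314, 11624 and 11989 genes were listed at 0, against 8985 to 9162 in ZsGreen-negative libraries.

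Genes of membrane repair, a process in which annexins seal torn membranes, moved in both directions. Of 15 genes 14 were tested, and 7 rose and 7 fell, with a median log2 fold change of 0.12, where 29.4% of all genes tested were higher and 30.0% lower, with a median of 0.0040. CAPNS1, the small subunit of the calpain proteases, rose to 188 ± 22.0 FPKM in ZsGreen-positive libraries, against 67.7 ± 3.22 FPKM in ZsGreen-negative libraries (log2 fold change 1.45 ± 0.0899, adjusted p = 1.29e-05). CHMP2A, a part of the ESCRT-III machinery, rose to 92.6 ± 16.1 FPKM in ZsGreen-positive libraries, against 42.6 ± 0.338 FPKM in ZsGreen-negative libraries. MYOF, which encodes the calcium-binding membrane protein myoferlin, fell to 50.4 ± 2.80 FPKM in ZsGreen-positive libraries, against 108 ± 2.17 FPKM in ZsGreen-negative libraries (log2 fold change -1.08 ± 0.0612, adjusted p = 8.82e-06). TRIM72, best known from muscle membrane repair, rose to 21.4 ± 1.55 FPKM in ZsGreen-positive libraries, against 11.7 ± 0.996 FPKM in ZsGreen-negative libraries. With the FPKM of each library made to sum to 1000000, 3 of these genes fell. Without ZsGreen-negative replicate 1, or without ZsGreen-negative replicate 2, 4 fell. Over all genes tested, 2515 of 11244 were lower after that rescaling. Without ZsGreen-negative replicate 1, 2977 of 12209 were lower, and without ZsGreen-negative replicate 2, 2962 of 12202.

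Copines are another family of proteins that bind membranes in response to calcium. Of 8 genes 4 were tested, and 2 rose, 0 fell and 2 did not pass, with a median log2 fold change of 0.45. The 2 of 4 that passed are no larger a share than the 59.4% of all genes tested. CPNE1 rose to 82.1 ± 1.66 FPKM in ZsGreen-positive libraries, against 41.4 ± 0.724 FPKM in ZsGreen-negative libraries (log2 fold change 0.97 ± 0.0539, adjusted p = 8.20e-06). CPNE7 rose to 37.8 ± 3.13 FPKM in ZsGreen-positive libraries, against 22.3 ± 0.207 FPKM in ZsGreen-negative libraries.

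Of 9 genes that set the exposure of phosphatidylserine, the lipid bound by ANXA5, 5 fell, 1 rose and 3 did not pass, with a median log2 fold change of -0.42. Over all genes tested 59.4% passed in either direction, so that 6 of 9 is near that rate, and 30.0% were lower. The scramblase gene ANO6 fell to 15.9 ± 0.783 FPKM in ZsGreen-positive libraries, against 44.7 ± 0.906 FPKM in ZsGreen-negative libraries (log2 fold change -1.44 ± 0.0665, adjusted p = 3.96e-06). PLSCR1, a phospholipid scramblase gene that is also induced by interferon, fell to 14.6 ± 1.43 FPKM in ZsGreen-positive libraries, against 60.0 ± 1.99 FPKM in ZsGreen-negative libraries (log2 fold change -1.97 ± 0.0832, adjusted p = 2.75e-06). Of its relatives, PLSCR4 fell to 0.238 ± 0.155 FPKM in ZsGreen-positive libraries, against 3.14 ± 0.0443 FPKM in ZsGreen-negative libraries. PLSCR3 rose to 7.51 ± 1.08 FPKM in ZsGreen-positive libraries, against 2.60 ± 0.949 FPKM in ZsGreen-negative libraries. With the FPKM of each library made to sum to 1000000, 3 genes of this list fell, and without ZsGreen-positive replicate 3, 2 rose. Over all genes tested, 2515 of 11244 were lower after that rescaling, and 3665 of 12191 were higher without ZsGreen-positive replicate 3.

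The genes whose profile over the 6 libraries lay nearest to that of ANXA1 were PEAK1, CHMP1B and PNPLA8, with root mean square differences of 0.0267, 0.0280 and 0.0415 on the log2(FPKM + 1) scale after centring each gene. CHMP1B was at 30.7 ± 1.49 FPKM in ZsGreen-positive and 85.2 ± 1.30 FPKM in ZsGreen-negative libraries. Nearest to ANXA2 were CTNNB1, which encodes beta-catenin, ABCD3 and KRT19, at 0.0191, 0.0267 and 0.0271 on the same scale. KRT19 was at 1086 ± 68.4 FPKM in ZsGreen-positive and 1079 ± 4.84 FPKM in ZsGreen-negative libraries. With 6 libraries in 2 groups the likeness to ANXA1 rests mostly on the difference between the groups. The genes nearest to ANXA2 had log2 fold changes of 0.0015, -0.0189 and 0.0074. Their likeness rests on the lack of a clear difference between the groups and on small scatter within them.

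**Figure D5:**
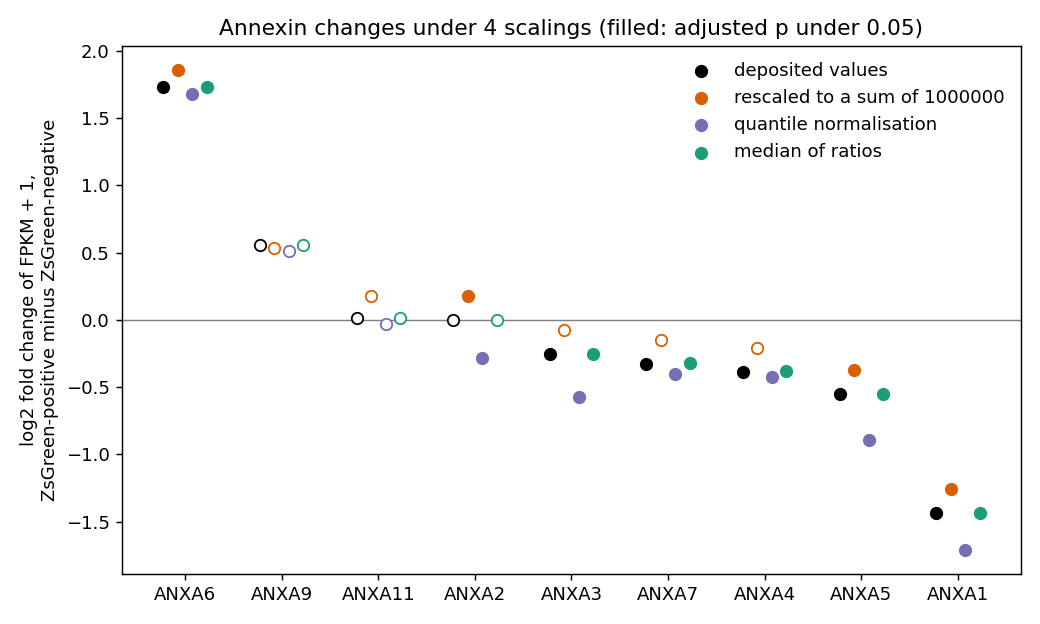
Log2 fold changes of the 9 annexins tested under the deposited values and 3 other scalings, with filled points at an adjusted p under 0.05. ANXA6, ANXA5 and ANXA1 stay filled with the same sign under all 4, ANXA3, ANXA7 and ANXA4 open when libraries are rescaled to a sum of 1000000, and ANXA2 is 0.18 under that rescaling and -0.29 under quantile normalisation.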

How the data were processed

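Libraries from 6 samples of HCT116 cells were compared, 3 ZsGreen-positive and 3 ZsGreen-negative. Per the labels' protocols, TRIzol and the miRNeasy Micro kit gave the RNA, and TruSeq Stranded mRNA, a kit that selects polyadenylated RNA, the libraries. The authors deposited FPKM values, 1 per gene symbol and library. The build was hg19, and Cuffdiff 2.2.1, TopHat2 2.1.1, SAMtools 0.1.18 and Bowtie2 2.2.8 were used, per the submitters' processing notes. Not given in the sources used here are the settings of these tools, how libraries were scaled to each other, the gene models and the use of strand.

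From these values, log2(FPKM + 1) was fitted with limma 3.58.1 in R 4.3.3 (two-sided, eBayes with trend) over genes with a mean of at least 1 FPKM, at an adjusted p threshold of 0.05. The fit had 4 residual and 3.22 prior degrees of freedom and was checked on simulated data. FPKM are not counts, so no count model was run, and fold changes of low genes are understated on this scale. Depth was estimated from the value of 1 fragment, the densest low value of FPKM times length between 0.05 and 0.13 over 3625 genes with 1 GENCODE transcript of at least 2000 nt. It rests on 113 to 151 genes at 1 fragment in each ZsGreen-negative library, but on 74, 10 and 6 genes in ZsGreen-positive replicates 1 to 3, and is rough for the last 2. The estimate takes the total behind each FPKM as that library's own, which is not given. No values within a library were treated as replicates. For ratios and shares, two-sided exact permutation tests over the libraries were run in Python 3.11.15.

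The annexins and the partner lists were chosen with earlier results of these data known. Named were all annexins, 3 S100 partners, the ANXA2 pseudogenes, up to 4 passing genes of each other list by size of change, and the 3 genes nearest in profile to ANXA1 and ANXA2. Alternatives were other pseudocounts (0.1, 0.01 and 5), other filters, 3 other scalings, no trend, a replicate block and leaving out each library. Leaving out ZsGreen-positive replicates 2 and 3 together was added after seeing the data.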

Additional observations from a re-analysis of the deposited data

How the results depend on the processing

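ANXA1, ANXA5 and ANXA6 kept their direction and call under all 17 alternatives, with log2 fold changes of -1.71 to -1.26, -0.89 to -0.37 and 1.54 to 1.86. ANXA3 kept its call under 13, ANXA7 under 13 and ANXA4 under 8 of 17. Among the 17 is the fit with ZsGreen-positive replicate 1 alone, whose scatter comes only from the ZsGreen-negative libraries. A call kept in that fit is no check on the scatter among ZsGreen-positive libraries. With each library rescaled to a sum of 1000000, 2 annexins were higher and 2 lower, 3 membrane repair genes and 3 genes of phosphatidylserine exposure were lower, and of all calls 62.4% were higher (49.5% on the deposited scale). The number of annexins called higher was 1 to 2 and lower 2 to 5 when single libraries were left out. Over all genes tested, 5937 to 5972 were called without a ZsGreen-negative library and 7454 to 7578 without a ZsGreen-positive library. With all libraries 7258 were called. Where only 2 annexins were lower, these were ANXA1 and ANXA5. Other direct partners called higher numbered 1 with no filter, with quantile normalisation and without a trend, and 1 to 2 with single libraries left out. With no filter, 2 of them were lower, as was 1 ANXA2 pseudogene, since more genes were tested. Leaving out single libraries gave 4 to 7 lower membrane repair genes, 1 to 2 higher genes of phosphatidylserine exposure and 0 to 1 higher ANXA2 pseudogenes. The log2 difference of the ratio of ANXA1 to S100A11 was -0.492 to 0.0394 with single libraries left out and -0.94 with ZsGreen-positive replicate 1 alone. ANXA2 had log2 fold changes of -0.29 under quantile normalisation and -0.0299 to 0.0256 with single libraries left out. ANXA11 was at -0.0281 under quantile normalisation and at -0.0827 to 0.137 with single libraries left out. The difference in the share of ANXA4 was -0.0057 to 0.147 percentage points and that of ANXA10 -0.0052 to 0.0346 with single libraries left out. Same-numbered deviations from the group means correlated at -0.0211, -0.0301 and -0.0209 across genes, and no library correlated best with its own number. The title numbers thus gave no sign of pairing. With so few libraries in a group these correlations cannot show that the libraries were not paired. The replicate block changed no call of an annexin and gave 6915 called genes in all, against 7258, and the ratios kept their values (0.75 for ANXA2 to S100A10) with p = 0.25 at the smallest in an exact permutation within pairs. For the other shifts above the cause was not tested. ANXA9 and ANXA10 had the lowest levels of the 10 annexins. Their coefficients of variation were 62.6% and 130% in ZsGreen-positive and 27.9% and 44.8% in ZsGreen-negative libraries. The part of depth in this scatter was not tested.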
